A study of Homo sapiens with 42 samples.

Results

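These are the transcripts that were lower with both MALT1 hairpins in the lymphoma line OCI-Ly3 and did not reach a set limit for a fall in the lymphoma line TMD8. They were chosen from the knockdown libraries in 3 steps. A row of the expression table entered when its level reached 1 CPM (the reads of a row scaled to the size of its library) in 3 or more of the 18 knockdown libraries, as 12303 of the 23250 rows did. The change with a hairpin was the group median of log2(CPM + 1) minus that of the same line's non-targeting control. A row was kept when this change was -0.5 or lower with each hairpin in OCI-Ly3 and above -0.3 with each hairpin in TMD8. Of 130 rows that met the OCI-Ly3 condition, 30 failed the TMD8 condition and 100 became the members. The same thresholds for a fall with both hairpins selected 127 rows in TMD8. The files give each row a running number and no gene name, so the members are described by their levels and changes, and the products that they encode are not named here.

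OCI-Ly3 and TMD8 are established human lines derived from diffuse large B-cell lymphomas of the activated B cell-like (ABC) type. For the knockdown, cells of either line took up a lentivirus with a non-targeting hairpin, MALT1 hairpin 1 or MALT1 hairpin 2. In the compound experiment cells of either line received the solvent DMSO or compound 3, which the series describes as a covalent MALT1 inhibitor, for 8 h or 24 h at 100 nM. RNA-seq gave 18 knockdown libraries in 6 groups and 24 compound libraries in 8 groups, with 3 libraries in each of the 14 groups. All knockdown cells, controls included, had been infected, and the experiment has no group without a lentivirus. The labels do not say whether the 3 libraries of a group came from separate cultures, so p-values measure the spread between these libraries, which may be technical. Since the rows carry no names, neither the level of MALT1 nor the markers of the lines were checked here.

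MALT1 is a paracaspase, a protease that cuts its substrates after arginine. It links the antigen receptors of lymphocytes to the transcription factor NF-kappaB, both as a scaffold and by cutting proteins that restrain the pathway. Lymphomas of the ABC type often keep this pathway active. A hairpin lowers the MALT1 protein and thus removes scaffold and protease together, whereas an inhibitor of the active site blocks the protease and leaves the protein in place.

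Depth ran from 15.8 to 19.4 M reads in the rows of a knockdown library and from 23.3 to 31.6 M in those of a compound library. OCI-Ly3 non-targeting replicate 1 stood apart. In 1209 rows its distance from the mean of replicates 2 and 3 exceeded 1 log2 unit. The same count was 174 for replicate 2, 150 for replicate 3 and no more than 50 for each remaining knockdown library. In the compound experiment the TMD8 8 h libraries numbered 1 stood apart likewise, the DMSO library in 552 rows and the compound 3 library in 565, while the others of that time did so in 55 to 142. The OCI-Ly3 hairpin 2 libraries had 73.6% to 74.7% of their reads in the rows, against 78.1% to 79.3% in their controls. The part of this share in the changes below was not tested.

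In OCI-Ly3 the members were lower with hairpin 2 than with hairpin 1 in most cases. The change with hairpin 1 had a median of -0.65 and ran from -1.28 to -0.50 on the log2(CPM + 1) scale. The change with hairpin 2 had a median of -0.95 and ran from -3.03 to -0.51. These values chose the members and are a description with no test, and both hairpins were set against the same 3 controls. Over all 12303 rows the median changes were 0.00 and -0.0043, with quartiles of -0.13 and 0.14 for hairpin 1 and of -0.31 and 0.30 for hairpin 2. The changes with hairpin 2 were thus wider over all rows too. Hairpin 2 gave the lower value in 82 of the 100 members, with a median difference of -0.28 between the hairpins. A change of 1 log2 unit or more was found in 45 members with hairpin 2, in 10 with hairpin 1 and in 9 with both.

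The choice of members left many near the threshold. In 43 members the weaker of the OCI-Ly3 changes lay between -0.6 and -0.5. The member just inside that threshold stood at -0.503 and the row just outside at -0.499. On the TMD8 side the member just inside stood at -0.297 and the row just outside at -0.3003.

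All 3 hairpin 1 libraries lay below all 3 controls in 70 of the 100 members, beside 17.7% of all rows. All 3 hairpin 2 libraries did so in 77 members, beside 25.1% of all rows. Both counts come from the values that chose the members. OCI-Ly3 non-targeting replicate 1 lay above all 6 hairpin libraries in 72 members, and replicates 2 and 3 each did so in 97. It was the lowest control in 41 members and the highest in 51, and in 23 it was over 1 log2 unit away from the mean of the other controls. The median within-group SD of the members on the log2 scale was 0.35 in these controls, against 0.10 with hairpin 1 and 0.13 with hairpin 2. Chosen again without replicate 1, the rule gave 97 rows, 82 of them shared with the 100 members. Without replicate 2 it gave 354 rows with 64 shared, and without replicate 3 it gave 360 rows with 63 shared. The list thus depends on which control libraries enter the median. Between the reads of replicates 2 and 3 the chi-square per degree of freedom was 1.92, where 1 would be counting error alone. It was 91 and 85 between replicate 1 and each of them, and 1.79 to 4.67 within hairpin 1. Replicates 2 and 3 may thus not count as independent controls, and whether their closeness is technical was not tested.

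Replicate 1 set the median of the controls in 8 members, replicate 2 in 44 and replicate 3 in 48. In the member with the deepest mean change replicate 1 lay far below the other controls and did not set the median. Its level in the OCI-Ly3 controls was 1.07 CPM in replicate 1, 14.7 in replicate 2 and 14.5 in replicate 3. With hairpin 1 it stood at 5.44, 5.41 and 5.12 CPM, and with hairpin 2 at 0.909, 0.894 and 1.16 CPM. Replicate 1 of the controls was as low as the hairpin 2 libraries and below every hairpin 1 library, so the groups overlapped. In TMD8 the same member lay between 1.82 and 3.56 CPM in the 9 knockdown libraries, and its controls fell within the range of its hairpin libraries.

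The most abundant member had closely agreeing controls. Its OCI-Ly3 levels were 955, 904 and 896 CPM with the non-targeting hairpin. They were 599, 610 and 596 CPM with hairpin 1 and 441, 460 and 495 CPM with hairpin 2, and none of the 3 groups overlapped. In TMD8 the controls had 1451, 1384 and 1432 CPM, hairpin 1 gave 1706, 1711 and 1645 CPM, and hairpin 2 gave 1508, 1543 and 1489 CPM. In that line every hairpin library thus lay above every control.

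In TMD8 the changes of the members centred on 0, which the rule fixed on the lower side alone. They had a median of 0.00 with hairpin 1, from -0.29 to 0.53, and of -0.0011 with hairpin 2, from -0.30 to 0.51. Of the 100 members 27 were higher with both hairpins, 30 were lower with both, and 18 lay within 0.1 of 0 with both. None reached 0.3 or more with both.

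**Figure D1:**
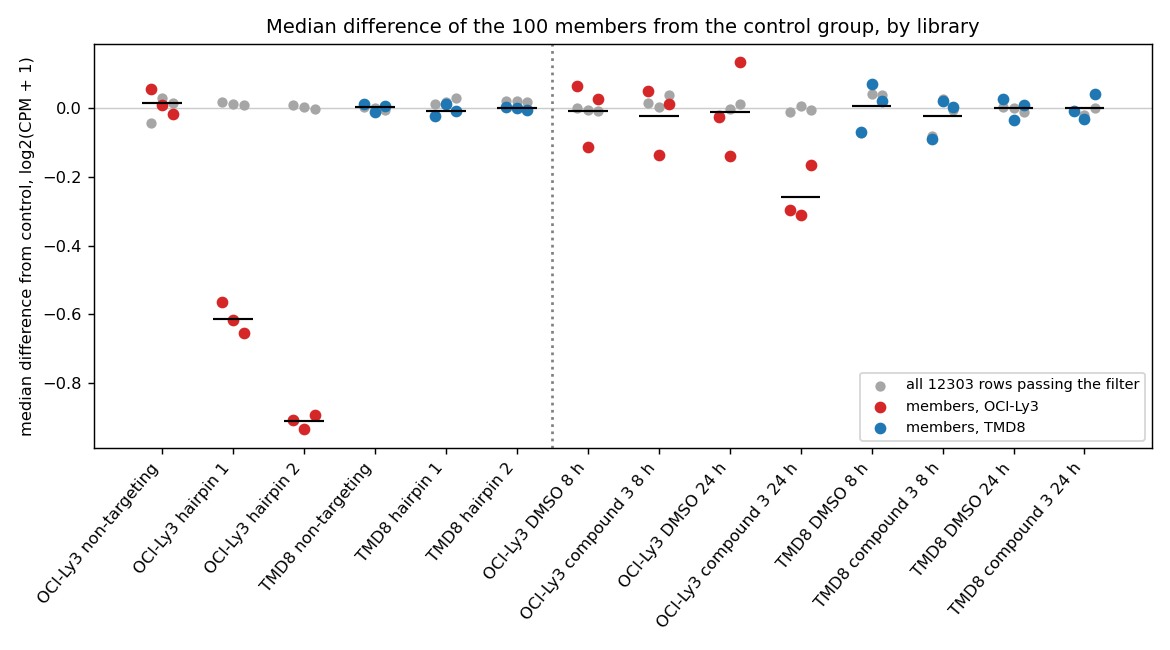
Median difference of the 100 members from the mean of their control group in each of the 42 libraries, in log2(CPM + 1), with the median over all 12303 rows in grey and a black line at the mean of each group's 3 libraries. The control is the non-targeting hairpin left of the dotted line and DMSO of the same line and time right of it; the OCI-Ly3 hairpin libraries lie between -0.565 and -0.935, and the OCI-Ly3 compound 3 libraries at 24 h between -0.166 and -0.311.

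Summed over the members, the OCI-Ly3 controls held 4348 to 4764 CPM. Hairpin 1 libraries held 2804 to 3036 CPM and hairpin 2 libraries 2135 to 2184 CPM. In TMD8 the sums were 4777 to 4896 CPM in the controls, 5044 to 5164 CPM with hairpin 1 and 5032 to 5170 CPM with hairpin 2. Abundant members weigh most in these sums. The most abundant member alone held means of 918, 602 and 465 CPM in OCI-Ly3 with the non-targeting hairpin, hairpin 1 and hairpin 2. In TMD8 it held 1423, 1687 and 1513 CPM, so the higher TMD8 sums do not describe the typical member. In these bulk libraries fewer cells that contain a transcript and less of it per cell cannot be told apart.

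Many members were low in TMD8 to begin with. Their mean CPM in the non-targeting controls had a median of 10.8 in OCI-Ly3, from 1.13 to 918, and of 4.55 in TMD8, from 0 to 1423. Over all rows that passed the filter the medians were 22.8 in both lines. In TMD8 controls 31 members lay below 1 CPM, against 8.36% of all rows, and in OCI-Ly3 controls none did. On this scale a row at 0 cannot fall and a row below 1 CPM can fall by at most 1 log2 unit, so the TMD8 condition left these 31 members less room to fail it. Of them 3 had no reads in any TMD8 control, and 1 had none in any of the 21 TMD8 libraries.

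**Figure D2:**
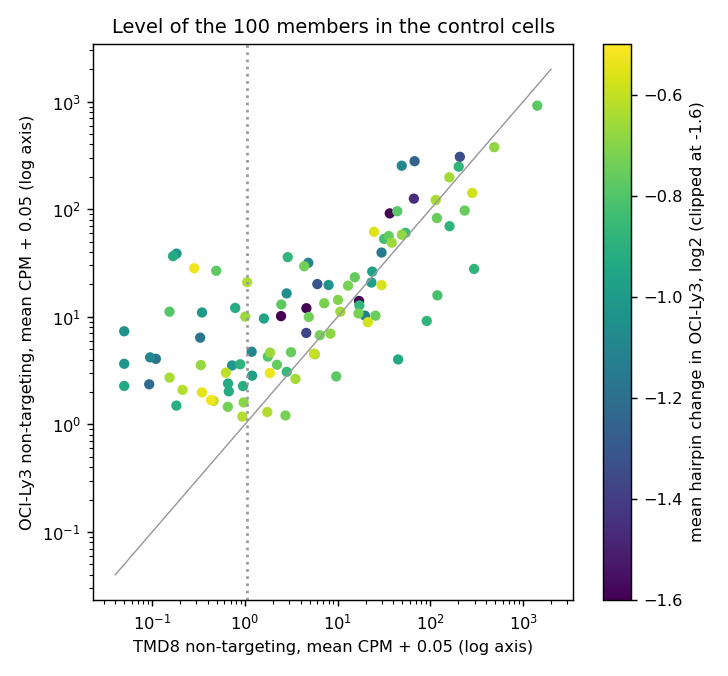
Mean CPM of each of the 100 members in the non-targeting controls of TMD8 (x axis) and OCI-Ly3 (y axis), on log axes after adding 0.05, coloured by the mean log2 change with both hairpins in OCI-Ly3. The solid line marks equal levels and the dotted line 1 CPM in TMD8, left of which lie 31 members.

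The difference in level between the lines was tested in the DMSO libraries, which the rule did not use. With limma, at a Benjamini-Hochberg adjusted p below 0.05 over 12589 rows, 58 of the 96 members that could be tested there were higher in OCI-Ly3 and 20 were lower, beside 37.5% and 32.1% of all rows. The other 4 members stayed at or below 1.24 CPM in every compound library and missed the filter of 1 CPM in 3 libraries. The median difference was 0.53 log2 units over the members and 0.06 over all rows. The condition on OCI-Ly3 changes asks for expression in that line, so a shift towards it is partly fixed by the choice of members. The member with the largest excess in OCI-Ly3 had 37.0, 33.9 and 34.0 CPM there with DMSO at 24 h and 0.304, 0.139 and 0.242 CPM in TMD8. The member with the largest excess in TMD8 had 10.2, 10.3 and 12.3 CPM in OCI-Ly3 and 288, 252 and 253 CPM in TMD8. Its OCI-Ly3 knockdown levels were 31.8, 27.2 and 24.4 CPM in the controls and 12.8 to 14.8 CPM in the 6 hairpin libraries, with no overlap.

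**Figure D3:**
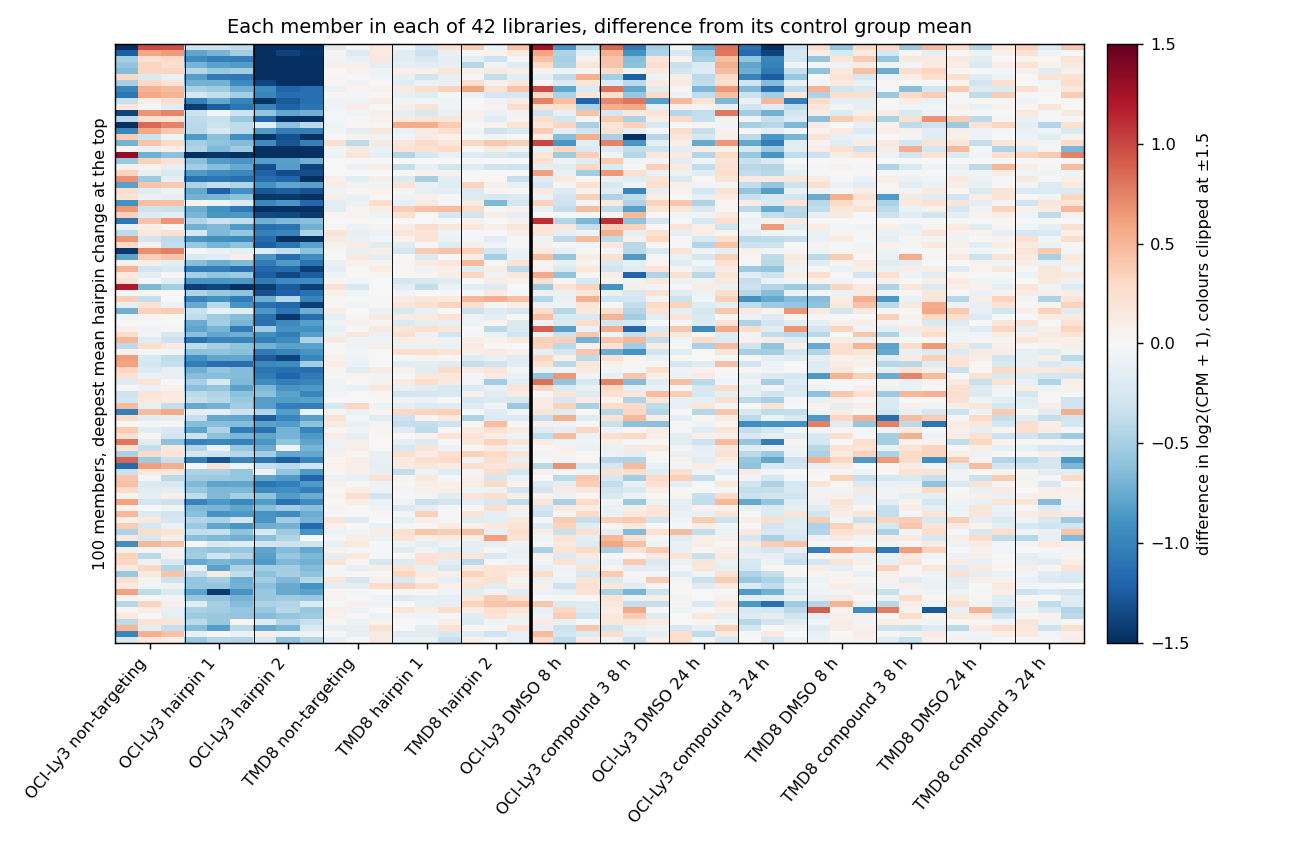
Difference of each of the 100 members (rows, deepest mean hairpin change at the top) from the mean of its control group in each of the 42 libraries (columns, 3 for each group), in log2(CPM + 1) with colours clipped at ±1.5. The blue block is the OCI-Ly3 hairpin libraries; OCI-Ly3 non-targeting replicate 1, the first column, departs from its group in both directions, and the OCI-Ly3 compound 3 columns at 24 h are mostly pale blue.

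The compound experiment asks whether the members also moved when the protease was inhibited without a hairpin, in libraries that took no part in choosing them. The link rests on row numbers standing for the same genes in the 2 experiments. Mean levels per row in the OCI-Ly3 controls of the 2 experiments had a Spearman correlation of 0.967 over 23250 rows, and so had those of TMD8, against 0.923 and 0.925 between lines.

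After 24 h of compound 3 most members stood lower in OCI-Ly3. The median difference from DMSO was -0.27 log2 units, with quartiles of -0.43 and -0.12 and a range from -1.04 to 0.32. Of the 96 members 83 lay below 0 (86.5%), against 49.7% of all rows, whose median was 0.0010. The median difference of the members from the DMSO mean was -0.297, -0.311 and -0.166 in the 3 compound libraries, and -0.026, -0.139 and 0.134 in the 3 DMSO libraries. The compound libraries thus lay below all DMSO libraries in this median.

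The call on single members turned on how the libraries were paired. In the limma fit without pairing, 0 of the 96 members were called, beside 0.771% of all rows, and the lowest adjusted p was 0.0702. At an unadjusted p below 0.05 there were 24 lower members and 1 higher, against 3.25% and 4.89% of all rows. On the recovered reads edgeR called 0 members, beside 0.445% of all rows, and DESeq2 called 2, both lower, beside 1.48%. Libraries with the same number deviated together here, and with the number as a block limma called 35 members lower and 1 higher, beside 3.69% and 5.39% of all rows. The spread per row in the blocked fit came from both lines and both times, and not from the OCI-Ly3 libraries at 24 h alone. Leaving out 1 pair of libraries in this blocked fit lowered the count of 35 to 20, 21 and 20, without pair 1, 2 and 3 in turn. The shares of all rows in these fits are not reported here, so the counts cannot be set against them. The 35 members fell by 0.26 to 1.04 log2 units, with a median of -0.52. Of these 35, 32 were also chosen when the rule left out OCI-Ly3 non-targeting replicate 1.

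Without a model, all 3 compound libraries lay below all 3 DMSO libraries in 25 of the 96 members, beside 11.2% of all rows. Within same-numbered pairs 60 members were lower in all 3 pairs and 3 were higher in all 3, and 22.4% of all rows were lower in all 3. The share of all rows higher in all 3 is not reported here. The medians of the 3 pairs were -0.29, -0.21 and -0.27.

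The 30 rows that met the OCI-Ly3 condition and failed that of TMD8 give a neighbouring value. With compound 3 at 24 h in OCI-Ly3 they had a median of -0.13, with 19 of 30 below 0 and a range from -1.77 to 0.32. The difference between them and the members was not tested.

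Members with a deeper hairpin change tended to fall further with the compound, though no more of them fell. Across the 96 members the mean hairpin change and the 24 h compound difference in OCI-Ly3 had a Pearson r of 0.47 and a Spearman rho of 0.29, as a description over rows that share libraries. The same relation held over all 12038 rows measured in both experiments, with r of 0.54 and rho of 0.47, so it is not particular to the members. The 48 members with the deeper change had a median compound difference of -0.31, with 41 below 0 and 22 blocked calls, all lower. The 48 with the shallower change had -0.21, with 42 below 0 and blocked calls of 13 lower and 1 higher. With the mean hairpin change in OCI-Ly3 set against the TMD8 compound difference, all rows gave r of 0.018.

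By level, the 48 members with the higher OCI-Ly3 control level had a median of -0.30 with 45 below 0, and the 48 with the lower level had -0.23 with 38 below 0. The 27 tested members under 1 CPM in TMD8 controls had a median of -0.21 in OCI-Ly3, with 20 below 0. The 69 others had -0.29, with 63 below 0.

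**Figure D4:**
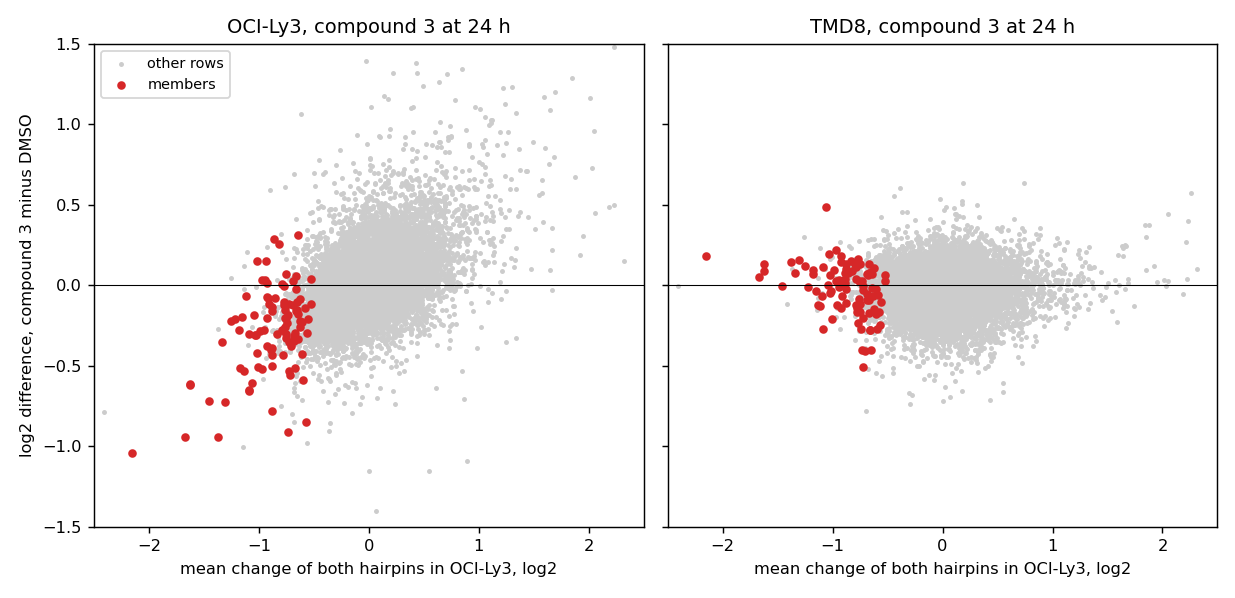
Log2 difference of compound 3 from DMSO at 24 h (y axis) in OCI-Ly3 (left) and TMD8 (right), against the mean log2 change with both hairpins in OCI-Ly3 (x axis), with members in red and other rows in grey. Of 12038 rows, 20 lie outside the left panel and 10 outside the right one, and 83 of the 96 members lie below 0 on the left.

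At 8 h the members were centred on 0 in OCI-Ly3. The median difference from DMSO was -0.004 and 49 of 96 lay below 0, against 46.4% of all rows. limma without pairing called 0 members, beside 0.0397% of all rows. edgeR and DESeq2 also called 0 members, beside 2 and 11 of the 12589 rows. With so few rows called, these counts of 0 say little about the members. At an unadjusted p below 0.05 limma gave 5 lower members and 1 higher, against 0.763% and 0.532% of all rows. With the replicate block 4 members were called, all lower, beside 0.326% of all rows, and 3 of these 4 were also among the 35 at 24 h. Without pair 1, 2 or 3 the blocked fit called 2 members each time, and the shares of all rows are not reported here. All compound libraries lay below all DMSO libraries in 3 members, beside 1.34% of all rows. Within pairs 26 members were lower in all 3 and 16 were higher in all 3, and 12.1% of all rows were lower in all 3. For the higher direction no share of all rows is reported here. The 35 members called lower at 24 h had a median of -0.09 at 8 h.

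The most abundant member was among the 4. With DMSO at 8 h it had 705, 647 and 1027 CPM in OCI-Ly3, and with compound 3 it had 465, 418 and 630 CPM, lower in each pair. The difference was -0.64 log2 units, with an adjusted p of 0.000776 in limma with the replicate block and of 1 without it. At 24 h it had 598, 673 and 774 CPM with DMSO and 480, 472 and 559 CPM with compound 3. The 24 h difference was -0.43, with an adjusted p of 0.00242 in the blocked limma fit and of 0.609 in limma without the block. In TMD8 at 8 h it had 857, 1382 and 1321 CPM with DMSO and 680, 1073 and 1003 CPM with compound 3, again lower in each pair. The TMD8 difference was -0.36, with an unadjusted p of 0.000243 and an adjusted p of 0.412 in the blocked limma fit. At 24 h in TMD8 this member had 1074, 1353 and 1316 CPM with DMSO and 1152, 1097 and 1173 CPM with compound 3. These groups overlapped, with a difference of -0.12.

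In TMD8 the compound left the members centred on 0 at both times. At 24 h their median difference was -0.002, with 48 of 96 below 0, against 48.2% of all rows. The 35 members that fell in OCI-Ly3 had a median of -0.004 in TMD8, from -0.50 to 0.49. At 8 h the median was -0.008. limma without pairing called 0 members at 24 h and 0 at 8 h, and 0% and 0% of all rows. edgeR and DESeq2 also called 0 members at both times, and 0 of all rows. With the replicate block, whose numbers pair the 8 h libraries, 0 members were called at 8 h, beside 0.0159% of all rows. At an unadjusted p below 0.05 without pairing there was 1 member at 24 h and 0 at 8 h, against 0.731% and 1.04% of all rows. All compound libraries lay below all DMSO libraries in 3 members at 24 h and 4 at 8 h, beside 2.09% and 4.14% of all rows.

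The difference between the lines was tested directly at 24 h. The compound difference in OCI-Ly3 minus that in TMD8 had a median of -0.19 over the members and 0.015 over all rows. Of the 96 members 75 lay below 0, against 47.4% of all rows. In the fit without pairing limma called 0 members, beside 0.0238% of all rows. edgeR and DESeq2 called 0 members, beside 0 and 6 of the 12589 rows, so these counts say little about the members. With the replicate block, whose numbers pair the OCI-Ly3 libraries and not those of TMD8 at 24 h, limma called 15, all lower, beside 0.659% of all rows. At an unadjusted limma p below 0.05 without pairing there were 8 members, all more negative in OCI-Ly3. Of all rows 1.08% did so in that direction and 3.11% in either direction.

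The members were also compared between times in DMSO. From 8 h to 24 h their median difference was 0.13 in OCI-Ly3 and 0.24 in TMD8, against -0.012 and 0.016 over all rows. limma called 6 members higher and 3 lower in OCI-Ly3, beside 0.921% and 2.26% of all rows. With the replicate block, whose numbers also paired these libraries, it called 15 higher and 9 lower, beside 3.48% and 7.29% of all rows. The 9 calls without the block became 4, 4 and 2 when replicate 1, 2 or 3 of the 24 h DMSO libraries was left out, and 2 without replicate 1 of those at 8 h. In TMD8 limma called 9 members higher and 1 lower, beside 3.45% and 3.71% of all rows. These 10 calls became 2 without replicate 1 of the 8 h DMSO libraries, and 6 and 5 without replicate 1 or 2 of those at 24 h.

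Set side by side, the lines differed in where compound-treated cells stood at 24 h. In OCI-Ly3 the median member was 0.13 higher at 24 h than at 8 h with DMSO and stood at -0.075 with compound 3. In TMD8 it was 0.24 higher with DMSO and 0.31 higher with compound 3. Against DMSO at 8 h, which neither 24 h group shares, compound 3 at 24 h stood at -0.16 in OCI-Ly3 and at 0.22 in TMD8. The time comparison and the 24 h compound comparison use the same DMSO libraries at 24 h, so a chance high value in those libraries would enter both.

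Row 15806 had the smallest p among the members that were lower with compound 3 at 24 h. It had 3.90, 3.88 and 3.74 CPM in OCI-Ly3 with DMSO and 1.70, 1.93 and 3.21 CPM with compound 3, with no overlap. The difference was -0.59 ± 0.15 (SE, n = 3 against 3) log2 units, with a limma adjusted p of 0.0702, and of 0.0065 with the replicate block. In a limma fit of OCI-Ly3 alone, without the block, the SE was 0.17 and the adjusted p 0.27. In the blocked limma fit the adjusted p was 0.0623 without pair 1, 0.0797 without pair 2 and 0.00133 without pair 3. At 8 h it had 3.72, 3.60 and 4.81 CPM with DMSO and 2.62, 2.12 and 3.01 CPM with compound 3, again without overlap. In the knockdown it had 6.95, 3.05 and 3.50 CPM in the OCI-Ly3 controls, 2.0, 0.944 and 1.85 CPM with hairpin 1, and 2.55, 2.10 and 2.0 CPM with hairpin 2. Replicate 1 was the high control here, and the controls lay above every hairpin library. In TMD8 it had 5.63, 5.44 and 5.47 CPM in the controls, 5.63, 5.63 and 5.25 CPM with hairpin 1 and 4.81, 5.28 and 4.81 CPM with hairpin 2. There hairpin 1 overlapped the controls, and every hairpin 2 library lay below them. In that line at 24 h it had 5.08, 5.38 and 5.88 CPM with DMSO and 4.18, 4.51 and 4.33 CPM with compound 3, also without overlap, a difference of -0.27 with a limma adjusted p of 1.

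Row 2227 came next. It had 5.73, 3.74 and 6.59 CPM with DMSO at 24 h in OCI-Ly3 and 2.12, 1.61 and 3.21 CPM with compound 3. The compound libraries lay below all DMSO libraries. The difference was -0.94 ± 0.26 (SE, n = 3 against 3) log2 units, with a limma adjusted p of 0.12 without the block and of 0.00096 with it. In a limma fit of OCI-Ly3 alone, without the block, the SE was 0.31 and the adjusted p 0.383. The OCI-Ly3 knockdown levels were 8.87, 5.89 and 6.34 CPM in the controls, 3.48, 2.79 and 2.78 CPM with hairpin 1 and 1.18, 1.12 and 0.80 CPM with hairpin 2, so the 3 groups were fully separated. In TMD8 it had 4.65, 4.58 and 4.39 CPM in the controls, 4.14, 3.50 and 4.07 CPM with hairpin 1 and 4.43, 3.31 and 3.92 CPM with hairpin 2. Every hairpin 1 library thus lay below every control in TMD8 as well, and hairpin 2 overlapped the controls.

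The deepest member of the knockdown also had the largest compound difference. It had 5.45, 2.92 and 10.7 CPM with DMSO at 24 h in OCI-Ly3 and 2.09, 1.05 and 4.36 CPM with compound 3. The groups overlapped, and the level was lower in each same-numbered pair. The difference of -1.04 had a limma adjusted p of 0.646 without the block and of 6.5e-06 with it.

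Few members stood higher with the compound. Row 21302 had 1.24, 1.59 and 1.47 CPM with DMSO at 24 h in OCI-Ly3 and 1.70, 2.13 and 2.27 CPM with compound 3, with no overlap. The difference was 0.32 ± 0.14 (SE, n = 3 against 3) log2 units, with a limma adjusted p of 0.507, and of 0.0367 with the block, where it was the 1 member called higher. That call was lost without pair 1, 2 or 3, at blocked limma adjusted p of 0.0834, 0.131 and 0.203. Its OCI-Ly3 controls in the knockdown were 0.768, 3.75 and 3.50 CPM, against 2.45, 1.89 and 2.0 CPM with hairpin 1 and 1.77, 1.70 and 1.78 CPM with hairpin 2. Replicate 1 of the controls lay below all 6 hairpin libraries, and the other controls lay above them. In TMD8 it stayed at or below 0.227 CPM in every library.

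Row 5047 had 3.45, 4.28 and 4.87 CPM with DMSO at 24 h in OCI-Ly3 and 4.64, 4.72 and 4.85 CPM with compound 3, and the groups overlapped. The difference was 0.15 ± 0.12 (SE, n = 3 against 3) log2 units, with a limma adjusted p of 0.878, and of 0.388 with the block. In the OCI-Ly3 knockdown it had 5.72, 1.89 and 2.84 CPM in the controls, 0.94, 0.987 and 0.926 CPM with hairpin 1 and 0.909, 0.849 and 0.444 CPM with hairpin 2. All controls lay above all hairpin libraries, so this member was lower with the hairpins and not with the compound.

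**Figure D5:**
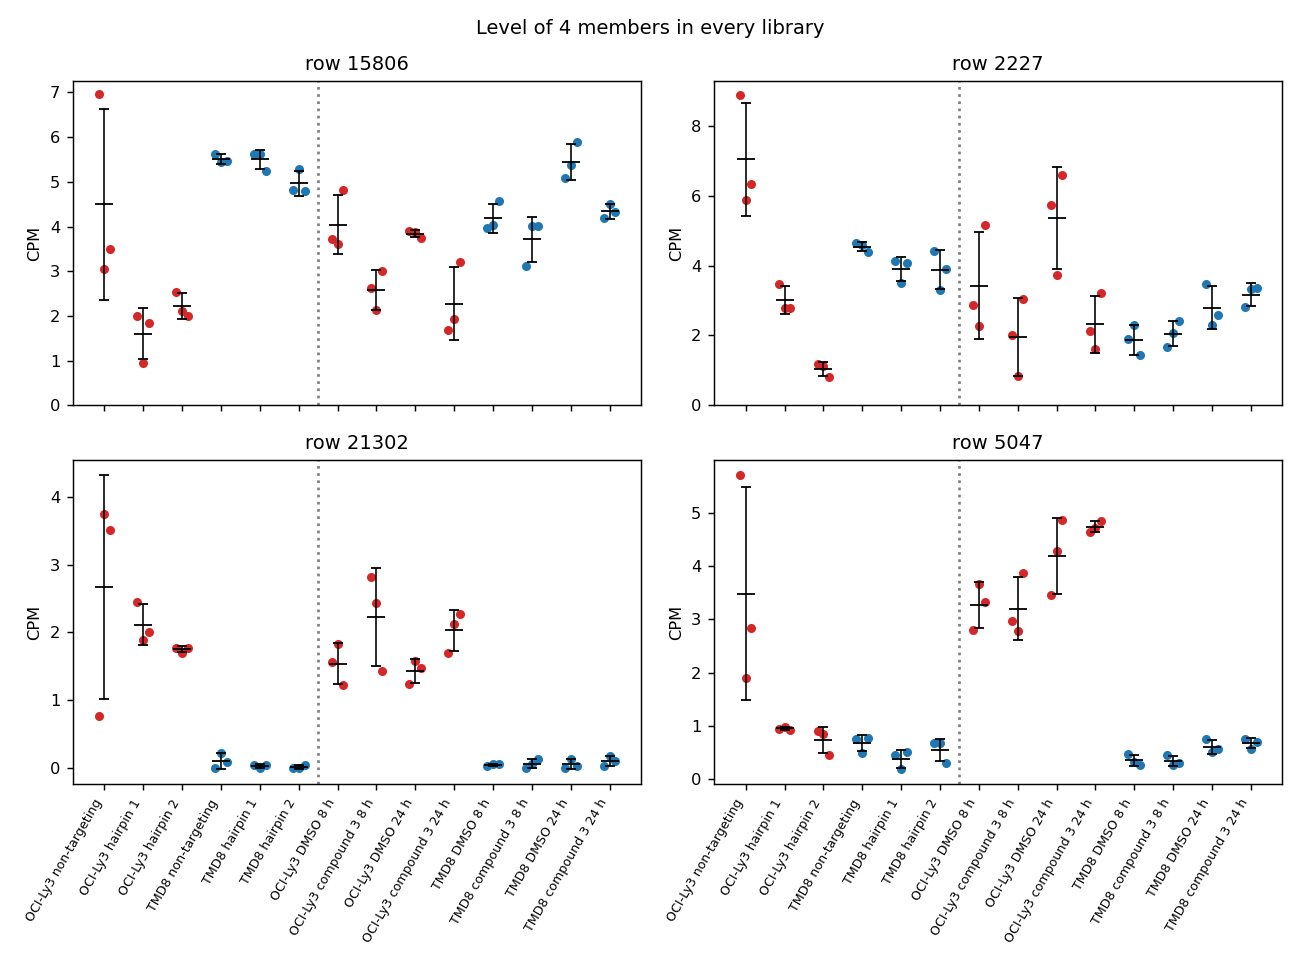
Level in CPM of rows 15806, 2227, 21302 and 5047 in each of the 42 libraries, with OCI-Ly3 in red, TMD8 in blue, the knockdown left of the dotted line and the compound experiment right of it, and black bars for the mean ± SD of each group of 3. Rows 15806 and 2227 are lower with compound 3 at 24 h in OCI-Ly3, row 21302 is higher, and row 5047 overlaps.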

How the data were processed

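RNA was sequenced in 42 libraries, grouped by their titles into 14 groups of 3. Libraries were made with a stranded mRNA kit, per the labels' protocols, and STAR (version not given) aligned the reads to the genome build hg19, according to the submitters' processing notes. Which program counted reads, and whether by strand, is not given in the sources used here, so rows that overlap or share reads with a copy could not be set apart. The authors deposited CPM, with a total per library that exceeds the reads in the rows: 71.9% to 79.6% of it lay in rows with the compound and 73.6% to 79.3% in the knockdown. CPM were whole multiples of 1 read in 100% of values (within 1e-06), which gave reads for the count tests. The totals so implied were 32.3 to 40.9 M and 20.5 to 24.5 M reads.

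The members and every list and test here were chosen with earlier results of these data known. Tests used limma 3.58.1 (R 4.3.3) with log2(CPM + 1) values: a group-means model over the 24 compound libraries with a mean-variance trend, two-sided, adjusted over 12589 rows with at least 1 CPM in 3 libraries. Each SE given with n = 3 against 3 came from this model, whose spread per row was shared by the 24 libraries of both lines. The blocked fits shared the spread per row in the same way, with the TMD8 24 h libraries included. A blocked fit of OCI-Ly3 alone was not made. Fold changes on this scale understate those of low rows. No test was made in the knockdown, which chose the members. Rows printed by number were the 2 lower and 2 higher members with the smallest limma p with compound 3 at 24 h in OCI-Ly3. Other members are named by their place in an ordering of levels or changes, some of them chosen after their values were seen. Alternatives were edgeR 4.0.16 (TMM) and DESeq2 1.42.0 on recovered reads, a pseudocount of 0.25, other filters and scalings, a fit of 1 line, libraries left out and other forms of the rule. limma without the block was also run on simulated reads drawn without pairing, with an outcome that is not reported here. That run does not bear on the blocked calls.

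Replicate numbers come from the titles and their pairing was judged from deviations from group means. Same-numbered libraries correlated at 0.504, 0.378 and 0.599 for OCI-Ly3 compound 3 and DMSO at 24 h, at 0.750, 0.715 and 0.808 at 8 h, at 0.921, 0.750 and 0.755 for TMD8 at 8 h, and at 0.510, 0.699 and 0.318 for OCI-Ly3 DMSO over time, so these were taken as pairs. For TMD8 at 24 h they were -0.179, -0.157 and 0.785, and these were not. Between the lines, same-numbered DMSO libraries correlated at 0.327, 0.444 and 0.125 at 24 h and at 0.275, 0.0852 and 0.201 at 8 h. The 24 h values between lines overlap those of OCI-Ly3 at 24 h and over time. The pairing behind the blocked calls in these comparisons is therefore uncertain.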

Additional observations from a re-analysis of the deposited data

How the results depend on the processing

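Of the 265 values recomputed under another setting, 227 stayed within the spread between replicates or, for counts, within 1.5 times the reported count. Many of the 227 were 0 calls that stayed 0 for compound 3 in TMD8 or for the difference between lines. Few or no rows at all were called there without the block, so this tally says little about stability. The median of the members with compound 3 at 24 h in OCI-Ly3 stayed negative under every setting run, from -0.311 to -0.187 with 1 library left out, and at -0.267, -0.179 and -0.180 with members chosen without OCI-Ly3 non-targeting replicate 1, 2 and 3 and -0.207 by group means. The 0 calls of that comparison became 1 with quantile normalization, with a fit of the one line, without the TMD8 8 h libraries numbered 1 and with members chosen by group means, 2 with DESeq2, 36 with the replicate block, and 20, 21 and 20 in the blocked fit without pair 1, 2 and 3, and 0 to 1 with 1 library left out. At 8 h in OCI-Ly3 the 0 calls became 4 with the replicate block, 2 in the blocked fit without pair 1, 2 or 3, and 1 with members chosen on log2(CPM + 0.25). The 0 calls for the difference between lines became 15 with the replicate block, whose numbers do not pair the TMD8 libraries at 24 h. For OCI-Ly3 DMSO over time, 9 calls became 5 with no filter, 4 with a fit of the one line, 24 with the replicate block, 14 with DESeq2, 14 without the TMD8 8 h libraries numbered 1, 15 with members chosen on log2(CPM + 0.25), and 2 to 9 with 1 library left out. For TMD8 over time, 10 calls became 32 with the replicate block (correlations 0.158, 0.0862 and 0.390, not taken as pairs), 18 with DESeq2, 5 without the TMD8 8 h libraries numbered 1, 19 of 204 with members chosen by group means, and 2 to 15 with 1 library left out, and the median rose to 0.352 with a pseudocount of 0.25. Between lines in DMSO, 78 calls of 96 members became 159 of 204 with members chosen by group means. The rule gave 207 members by group means and 354 and 360 without OCI-Ly3 non-targeting replicate 2 or 3. The cause of these shifts was not tested. The replicate block moved no other count of members called by over 1.5 times. A CPM of 1 is about 20 to 40 reads, so differences in members near that level were limited by counting error as well as by the spread between libraries.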
